A study of Homo sapiens with 12 samples.

Results

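The 8 genes described here are ACLY, ACSS2, ACACA, FASN, MID1IP1, ME1, IDH1 and ACSL3. All but MID1IP1 encode enzymes that build or activate fatty acids or supply acetyl-CoA or NADPH. MID1IP1 encodes a protein that stimulates such an enzyme. The 8 were chosen by name from the pathway, with earlier results of these data known, out of 19251 genes listed in the files. All 8 passed the filter on low values that left 17616 genes for testing. RNA was sequenced from the ovarian cancer lines CAOV3, which the labels call high grade serous, and TOV21G, labelled clear cell, both with a wild-type (WT) genotype. In each line 3 control libraries came from untreated cells and 3 libraries from cells given ovarian cancer ascites, the fluid that collects in the abdomen, at 10% for 16 h (150 µL added to 1.5 mL of medium). All groups were cultured in medium with 10% fetal bovine serum and antibiotics. The protocols describe no fluid added to the untreated wells and do not say from how many people the ascites came. Each tumour type is represented by a single established line, so that tumour type and line cannot be told apart.

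Fatty acid synthesis takes place in the cytosol. ATP citrate lyase (ACLY) cleaves citrate exported from mitochondria into acetyl-CoA, and acetyl-CoA synthetase (ACSS2) makes the same molecule from acetate. Acetyl-CoA carboxylase 1 (ACACA) converts acetyl-CoA to malonyl-CoA, the committed step, and is stimulated by MID1IP1, a small protein that promotes its polymerisation. Fatty acid synthase (FASN) condenses these units into palmitate and consumes NADPH, which malic enzyme 1 (ME1) and the cytosolic isocitrate dehydrogenase (IDH1) can supply. Long-chain acyl-CoA synthetase 3 (ACSL3) couples fatty acids to coenzyme A, which commits them to lipid synthesis and lipid droplets. Many of these genes are known targets of the sterol regulatory element-binding proteins (SREBPs), transcription factors that are released from the endoplasmic reticulum when sterols are low and that often act together with the factors NF-Y and Sp1.

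The promoters of MID1IP1, IDH1 and ACLY are shown as examples in which a motif marked below is present. The first 2 genes fell with ascites in 1 or both lines, while ACLY passed the test in neither. Each sequence is the 100 bases just before the outermost start that GENCODE 29 places in that window, written 5′ to 3′ on the gene's strand from RefSeq (GRCh38.p14). Capitals mark the sterol regulatory element and the NF-Y box on either strand. ACSL3 also fell in both lines. Its stretch, another stretch of IDH1, and those of ME1 and ACACA hold neither motif and are not shown. The stretch of ACSS2, also not shown, holds an NF-Y box.
MID1IP1: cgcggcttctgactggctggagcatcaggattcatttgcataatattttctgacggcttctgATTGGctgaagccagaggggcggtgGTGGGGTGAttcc
IDH1: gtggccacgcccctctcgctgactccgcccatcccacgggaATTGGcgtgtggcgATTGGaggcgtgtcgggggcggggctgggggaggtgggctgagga
ACLY: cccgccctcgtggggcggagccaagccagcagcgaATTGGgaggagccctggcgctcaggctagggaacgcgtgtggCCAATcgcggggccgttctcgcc
These stretches lie at chrX:38801332-38801431 on the plus strand, chr2:208255134-208255233 on the minus strand and chr17:41919023-41919122 on the minus strand.

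Promoter windows of 300 bases were found in RefSeq for 7 of the 8 genes, in 12 windows in all, and FASN had no entry. The sterol regulatory element (TCACNCCAC, searched on both strands) was present in 1 of the 12 windows, against 1.13% of 35116 windows of all genes. That match, GTGGGGTGA on the gene's strand of MID1IP1, lay at chrX:38801419-38801427, began 40 bases before the RefSeq start, which is downstream of the outermost GENCODE start used for the sequence above, and overlapped no other motif searched. The NF-Y box (CCAAT) was present in 8 of the 12 windows, against 34.6% of all windows. By gene it was present in 6 of the 7, ME1 being the exception, against 39.7% of all genes with a window. The GC box bound by Sp1 (GGGCGG) was present in 11 of the 12 windows and in 45.0% of all windows. An E-box of the letters CACGTG was present in none of the 12 and in 7.26% of all windows. Windows of a gene can overlap, as those of ACLY do, which hold the same NF-Y boxes. A match of letters is a description of the sequence only.

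The values are the deposited normalised read counts, reads divided by a factor for each library, written as mean ± SD (n = 3 per group) where single libraries are not listed. The libraries held 26697609 to 34491304 reads. The lowest count of any of the 8 genes in any library was 324 reads, for ACSS2, where the counting error is 5.56%. Of the 6 epithelial markers all were listed, and their summed value was 153270 to 154113 in CAOV3 controls, 176985 to 187539 in CAOV3 with ascites, 11293 to 12749 in TOV21G controls and 10698 to 12301 in TOV21G with ascites. In CAOV3 the means of EPCAM, KRT7, KRT8 and KRT18 were higher with ascites. Those of KRT19 and CDH1 were lower (CDH1 425 ± 33.1 in controls and 272 ± 8.43 with ascites). The serous markers were low in the serous-labelled line (PAX8 19.1 ± 1.18 in CAOV3 controls and 7032 ± 259 in TOV21G controls). Markers of leukocytes, which ascites can carry, were listed for 3 of 6 genes and summed to 194 to 214 and 172 to 223 in CAOV3 without and with ascites, and to 12.6 to 13.5 and 15.2 to 22.1 in TOV21G. Of 4 fibroblast markers 3 were listed, and their sum was 4198 to 4902 and 3785 to 3993 in CAOV3, and 12542 to 13079 and 11258 to 11688 in TOV21G. The part of these markers in the results below was not tested. In TOV21G, control replicate 1 and ascites replicate 2 deviated from their group means together (Pearson's r = 0.46 over 11886 genes), as did control replicate 2 and ascites replicate 3 (r = 0.32). The TOV21G calls among the 8 genes are therefore also given without these libraries. The labels do not say that the libraries of a group came from separate cultures, so p-values measure only the spread between these libraries, which may be technical. In bulk RNA, fewer cells expressing a gene and less of its RNA per cell cannot be told apart.

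The first question was which of the 8 genes changed with ascites. In CAOV3, FASN, IDH1 and ACSL3 fell, by 14.5%, 23.4% and 17.9%. In TOV21G, MID1IP1, IDH1 and ACSL3 fell, by 27.8%, 15.5% and 16.5%. IDH1 and ACSL3 fell in both lines, ACLY, ACSS2, ACACA and ME1 passed the test in neither, and none of the 8 rose in either line, where 0.636% and 0.142% of all tested genes did. A gene counted as changed when its adjusted p was under 0.05 in limma, a linear model fitted on log2(value + 1) across all 12 libraries with Benjamini-Hochberg adjustment over the 17616 genes. By that threshold 3 of 8 genes were lower in CAOV3, where 1.10% of all tested genes were, and 3 of 8 in TOV21G, where 0.267% were. Lower in both lines were 2 of 8, against 0.119% of all tested genes. Because the 8 genes were chosen with earlier results of these data known, these counts describe the set and carry no test. The median log2 change of the 8 genes was −0.22 in CAOV3 and −0.15 in TOV21G, beside −0.0021 and −0.02 for all tested genes.

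**Figure D1:**
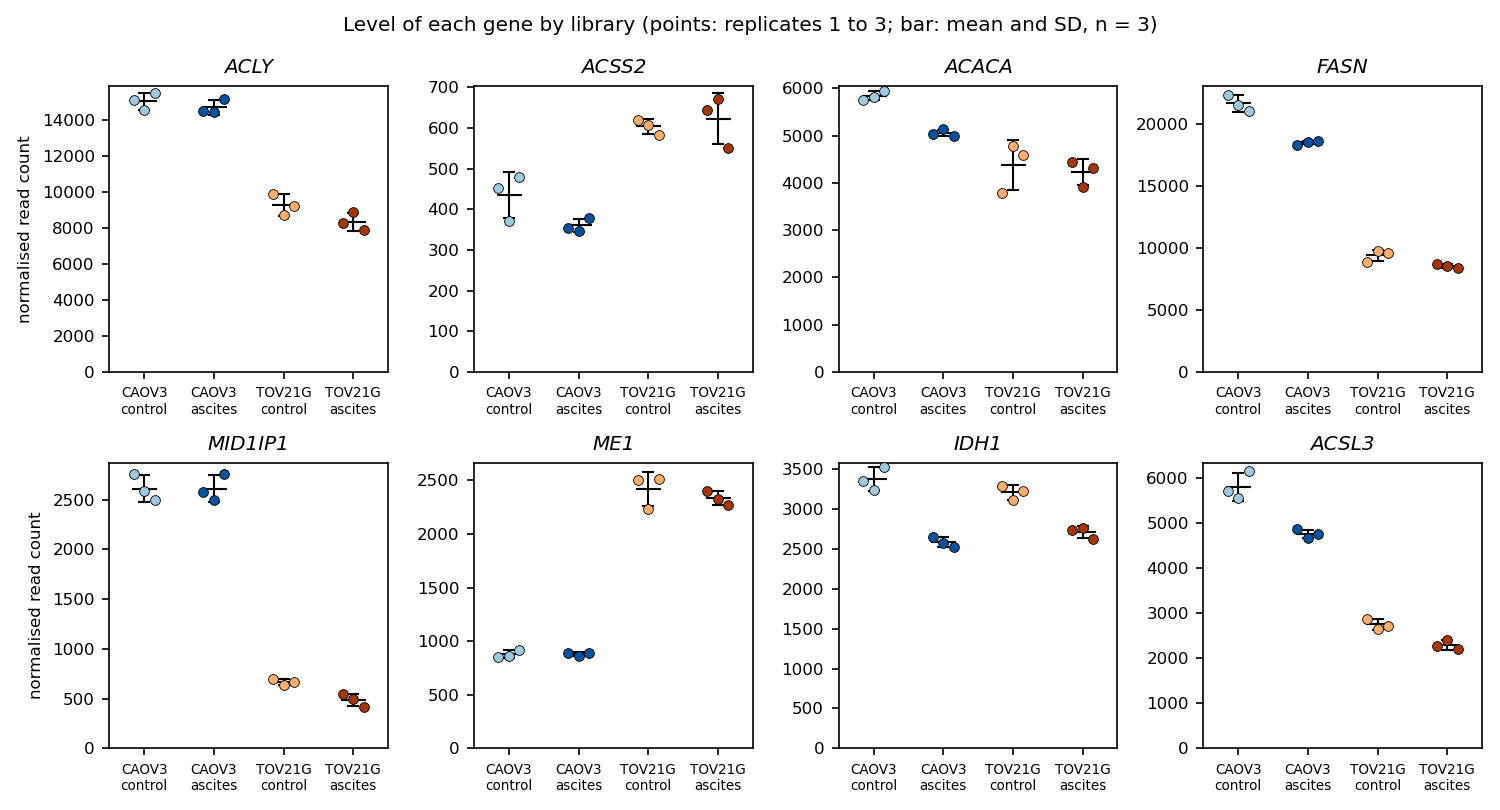
Normalised read count of each of the 8 genes in every library, on a separate vertical axis for each gene, with points for single libraries and bars for the group mean and SD. In CAOV3 the ascites libraries of ACACA, FASN, IDH1 and ACSL3 all sit below the controls, in TOV21G those of FASN, MID1IP1, IDH1 and ACSL3 do, and the points of ME1 overlap in both lines.

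ACLY, on chromosome 17 (GRCh38, GENCODE 29, 41866908 to 41930542, minus strand), had the highest level per kilobase of exon in both lines. Its values in CAOV3 were 15082, 14536 and 15470 in the controls and 14490, 14410 and 15171 with ascites. The 2 groups overlapped, and the log2 change was −0.03 (95% interval −0.15 to 0.09, limma adjusted p = 0.879). The TOV21G controls had 9883, 8692 and 9198 and the ascites libraries 8272, 8861 and 7881. Here too the groups overlapped, since ascites replicate 2 lay above control replicate 2, and the change of −0.15 (interval −0.27 to −0.03) did not pass the limma test (adjusted p = 0.427). A gene on the opposite strand, AC125257.2, overlaps an exon of ACLY and was not among the listed genes, so its level is not known. All intervals are for single genes and are not adjusted for the number of genes.

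ACSS2, the acetate route to acetyl-CoA (chromosome 20, 34872146 to 34927962, plus strand), had the lowest level of the 8 per kilobase of exon in both lines. In CAOV3 its values were 453, 371 and 480 in the controls and 354, 347 and 380 with ascites. The highest ascites library lay above the lowest control, and the change of −0.26 (interval −0.47 to −0.06) had a limma adjusted p of 0.236. Control values of 621, 608 and 583 were found in TOV21G, and the ascites libraries had 645, 673 and 552, which spanned the controls. The log2 change there was 0.04 (interval −0.17 to 0.25, limma adjusted p = 0.932).

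ACACA, the carboxylase of the committed step (chromosome 17, 37084988 to 37406818, minus strand), had CAOV3 values of 5763, 5824 and 5942 in the controls and 5040, 5130 and 4993 with ascites. All 3 ascites libraries lay below all 3 controls, by a log2 change of −0.21 (interval −0.37 to −0.05), yet the limma adjusted p was 0.213. In TOV21G the controls had 3787, 4787 and 4581 and the ascites libraries 4446, 3916 and 4319. The lowest values of each group were control replicate 1 and ascites replicate 2, which also deviated together across all genes, and the change was −0.05 (interval −0.20 to 0.11, limma adjusted p = 0.860). The fit pools the spread of both lines. The limma adjusted p of ACACA in CAOV3 was 0.0171 when CAOV3 was fitted alone, 0.0325 without TOV21G control replicate 1 and 0.00262 without TOV21G control replicate 1 and ascites replicate 2. No other setting called ACACA in CAOV3. Its limma adjusted p was 0.322 to 0.415 when any 1 CAOV3 library was left out and 0.463 with the replicate number as a block. The adjusted p was 0.172 in edgeR and 0.0661 in DESeq2.

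MID1IP1, the stimulator of acetyl-CoA carboxylase (chromosome X, 38801432 to 38806537, plus strand), had the largest fall of the 8 in TOV21G. Its TOV21G values were 698, 637 and 670 in the controls and 542, 495 and 419 with ascites. Every ascites library lay below every control, and MID1IP1 fell by 0.47 on the log2 scale (SE 0.08, interval −0.64 to −0.30, limma adjusted p = 0.0226). In CAOV3 the values were 2757, 2588 and 2492 in the controls and 2581, 2500 and 2757 with ascites. There the groups overlapped fully, and the change was 0.00 (interval −0.17 to 0.17, limma adjusted p = 1). An antisense gene, MID1IP1-AS1, overlaps an exon, and its means of 0 to 7.59 across the 4 groups were small beside those of MID1IP1.

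FASN, the synthase itself (chromosome 17, 82078333 to 82098332, minus strand), overlaps no other annotated gene and ranked second per kilobase of exon in both lines. Its CAOV3 values were 22370, 21563 and 21064 in the controls and 18343, 18568 and 18626 with ascites. The 3 ascites libraries lay close together and below all controls, and FASN fell by 0.23 on the log2 scale (SE 0.04, interval −0.32 to −0.13, limma adjusted p = 0.018). TOV21G controls had 8875, 9767 and 9552 and the ascites libraries 8686, 8504 and 8360. These groups did not overlap either, but the change of −0.14 (interval −0.24 to −0.05) had a limma adjusted p of 0.317. The CAOV3 call was lost in the fits that left out any CAOV3 library except control replicate 3 (adjusted p up to 0.0893, without control replicate 1) and after removal of a trend with gene length and GC content (change −0.17, adjusted p = 0.0858).

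IDH1, a source of cytosolic NADPH (chromosome 2, 208236227 to 208266074, minus strand), was lower with ascites in both lines. Its CAOV3 values were 3351, 3245 and 3535 in the controls and 2657, 2577 and 2527 with ascites. The highest ascites library lay well below the lowest control. IDH1 fell there by 0.38 on the log2 scale (SE 0.04, interval −0.47 to −0.29, limma adjusted p = 0.000293), and this call held in all 24 other settings tried. In TOV21G the controls had 3287, 3112 and 3233 and the ascites libraries 2745, 2764 and 2631. The groups again did not overlap, and IDH1 fell by 0.24 on the log2 scale (interval −0.33 to −0.15, limma adjusted p = 0.023). The antisense gene IDH1-AS1 overlaps an exon and had means of 4.82 to 24.7 in the 4 groups.

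ME1, the other NADPH source of the set (chromosome 6, 83210389 to 83431071, minus strand), passed the test in neither line. In CAOV3 the controls had 856, 864 and 920 and the ascites libraries 888, 861 and 891, with a change of 0.00 (interval −0.11 to 0.11, limma adjusted p = 1). In TOV21G the controls had 2507, 2234 and 2517 and the ascites libraries 2404, 2322 and 2274. The ascites values lay within the range of the controls, and the change was −0.05 (interval −0.16 to 0.06, limma adjusted p = 0.770).

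ACSL3, which activates long-chain fatty acids (chromosome 2, 222860934 to 222944639, plus strand), had CAOV3 values of 5713, 5548 and 6140 in the controls and 4853, 4662 and 4752 with ascites. All ascites libraries lay below the controls, and ACSL3 fell by 0.29 on the log2 scale (SE 0.05, interval −0.39 to −0.18, limma adjusted p = 0.00805). For TOV21G the control values were 2877, 2642 and 2720 and the ascites libraries 2265, 2409 and 2204. The groups did not overlap, and ACSL3 fell by 0.26 (interval −0.37 to −0.16, limma adjusted p = 0.0378). Without CAOV3 ascites replicate 2 the adjusted p in CAOV3 was 0.0501. An exon of ACSL3 is overlapped by AC013476.1 on the opposite strand, which was not among the listed genes, so its level is not known.

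The 3 TOV21G calls rested on the error shared with CAOV3. With TOV21G fitted alone the adjusted p was 0.513 for MID1IP1, 0.341 for IDH1 and 0.428 for ACSL3. Over the 12 fits that each left out 1 library, MID1IP1 was called in 10 (adjusted p up to 0.102, without TOV21G control replicate 3), IDH1 in 8 (up to 0.110, without the same library) and ACSL3 in 4 (up to 0.161, without TOV21G ascites replicate 3). Without TOV21G control replicate 1 and ascites replicate 2 the adjusted p was 0.0717 for MID1IP1, 0.0531 for IDH1 and 0.0343 for ACSL3. Without control replicate 2 and ascites replicate 3 it was 0.0328, 0.067 and 0.106. The ascites libraries of FASN, MID1IP1, IDH1 and ACSL3 all lay below the TOV21G controls, which makes 4 of 8 genes, against 6.99% of all tested genes. In CAOV3 this held for ACACA, FASN, IDH1 and ACSL3, also 4 of 8, against 12.8%. These counts, too, describe a set chosen with earlier results known.

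**Figure D2:**
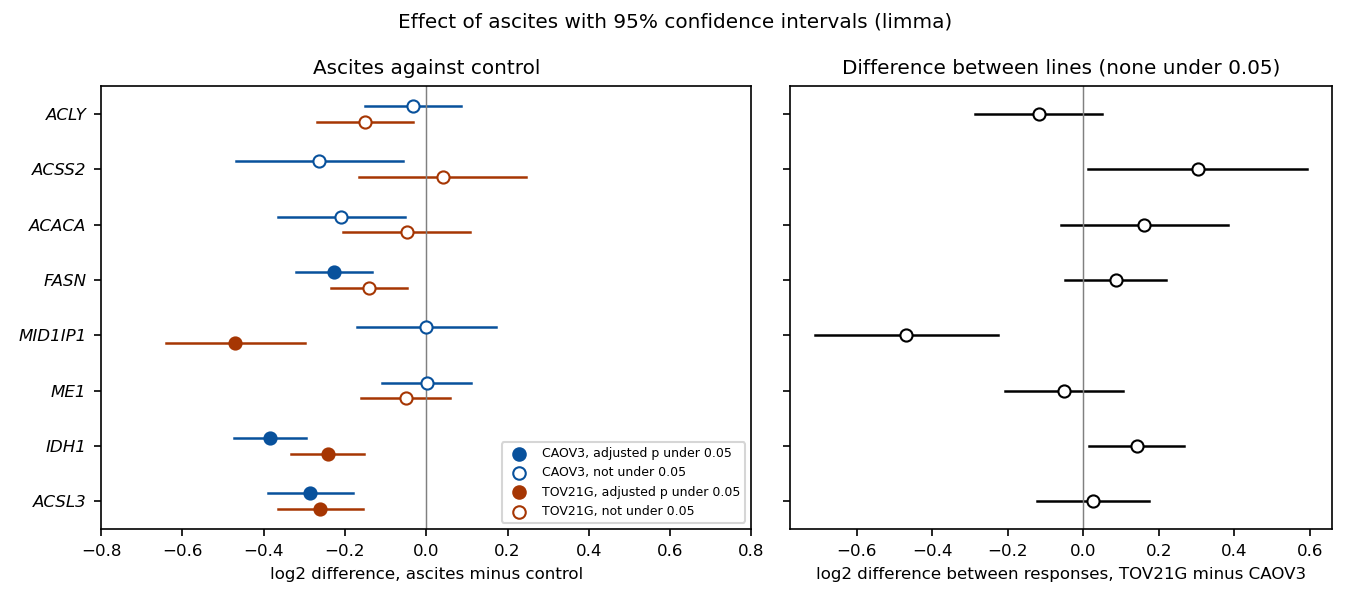
Log2 change with ascites in CAOV3 and TOV21G and the difference between the lines, with points for the limma estimates, filled for adjusted p under 0.05, and bars for 95% intervals of single genes. IDH1 and ACSL3 lie below 0 in both lines, and MID1IP1 lies at 0.00 in CAOV3 and at −0.47 in TOV21G.

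Whether the response differed between the lines was tested as the interaction of line and treatment. None of the 8 genes passed this test in limma, and 0.545% of all tested genes did. An unadjusted p under 0.05 was found for 3 of the 8, against 11.9% of all tested genes. The largest difference was that of MID1IP1, −0.47 on the log2 scale (TOV21G minus CAOV3, SE 0.11, interval −0.71 to −0.23, limma adjusted p = 0.112). On recovered reads the same difference passed in edgeR (−0.43, adjusted p = 0.0377) and in DESeq2 (−0.46, adjusted p = 0.00288), each of which called only this gene of the 8. IDH1 differed by 0.14 (interval 0.02 to 0.27, limma adjusted p = 0.384) and ACSS2 by 0.30 (interval 0.01 to 0.59, limma adjusted p = 0.408). The intervals of ACLY, ACACA, FASN, ME1 and ACSL3 included 0, and that of ACSL3 ran from −0.12 to 0.17. FASN was called in CAOV3 and not in TOV21G, but its difference of 0.09 (interval −0.05 to 0.22) had a limma adjusted p of 0.576.

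The untreated lines differed in the make-up of the pathway. TOV21G controls had lower values than CAOV3 controls for MID1IP1 (3.90-fold), FASN (2.31-fold), ACSL3 (2.11-fold), ACLY (1.63-fold) and ACACA (1.34-fold). They had higher values for ME1 (2.75-fold) and ACSS2 (1.4-fold). Limma adjusted p-values of these 7 genes lay between 6.33e-12 for ME1 and 0.000346 for ACSS2. IDH1 did not pass, with 3377 ± 147 in CAOV3 and 3210 ± 89.6 in TOV21G (log2 difference −0.07, interval −0.16 to 0.02, limma adjusted p = 0.118). Since 82.2% of all tested genes differed between the lines, 7 of 8 is near the background. Lower in TOV21G were 5 of 8, against 41.4% of all tested genes, and higher 2 of 8, against 40.8%.

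Per kilobase of exon, the order of the 8 genes could be compared within a line. In CAOV3 controls ACLY (2881 ± 89.9 per kilobase) and FASN (2314 ± 70.4) led, followed by ACSL3 (801 ± 42.2), and IDH1 (715 ± 31.1) and MID1IP1 (689 ± 35.4) came next within each other's spread. ACACA (449 ± 7.0), ME1 (261 ± 10.5) and ACSS2 (80.7 ± 10.5) came last. In TOV21G controls ACLY (1775 ± 115) and FASN (1004 ± 49.7) again led, ME1 (718 ± 47.6) and IDH1 (680 ± 19.0) came next within each other's spread, and ACSL3 (379 ± 16.5) and ACACA (337 ± 40.6) were also within it. MID1IP1 (176 ± 8.01) and ACSS2 (112 ± 3.58) were lowest. ME1 made up 3.19% of the summed level per kilobase of the 8 genes in CAOV3 and 13.9% in TOV21G, FASN 28.3% and 19.4%, and ACLY 35.2% and 34.3%. Lengths are those of all annotated exons of a gene together, so the order depends on which isoforms the lines use.

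**Figure D3:**
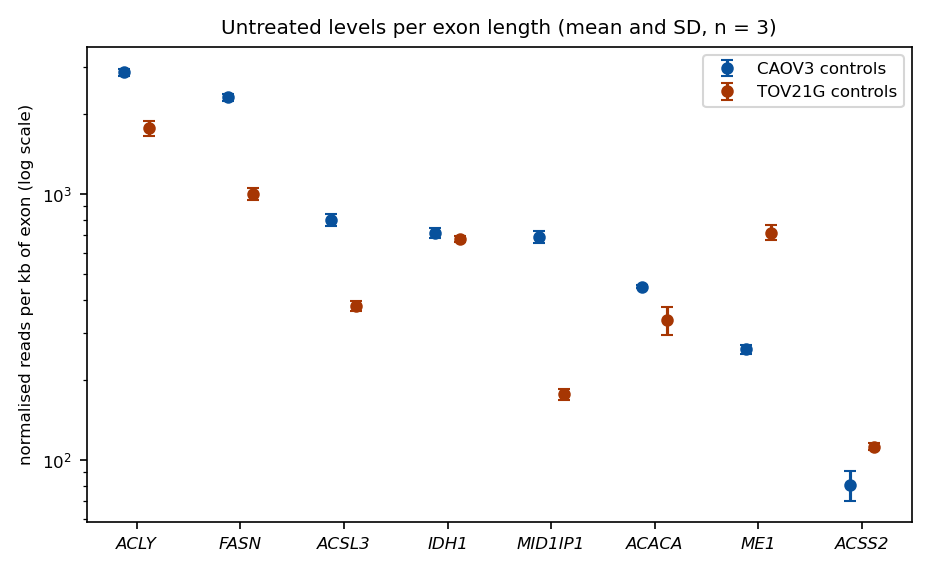
Normalised read count per kilobase of exon in the untreated libraries of both lines on a log axis, with points for group means and bars for the SD (n = 3). ME1 is at 261 in CAOV3 and 718 in TOV21G, MID1IP1 at 689 and 176, and ACLY is highest in both.

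The remaining enzymes of the pathway were read from 7 lists of 90 genes, of which 83 were listed in the files and 82 tested. With ascites, 6 of the 82 fell in CAOV3 and 4 in TOV21G, and none rose (limma, adjusted p under 0.05). Over all tested genes 1.10% and 0.267% were lower and 0.636% and 0.142% higher. The lists were also chosen with earlier results of these data known, so these counts carry no test. Of the 9 genes of acetyl-CoA and citrate supply none was called in either line, with 0 and 3 at an unadjusted p under 0.05 and none in edgeR or DESeq2. Of the 17 other NADPH genes, the pentose phosphate, folate and mitochondrial routes, limma called none in either line, with 3 and 4 at an unadjusted p under 0.05, while edgeR and DESeq2 each called RPIA in CAOV3 and none in TOV21G. Of the 11 genes of activation, binding and uptake none was called by limma, edgeR or DESeq2, with 1 at an unadjusted p under 0.05 in each line.

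Among the 10 genes of malonyl-CoA and chain synthesis, ACACB, the mitochondrial carboxylase whose malonyl-CoA restrains fatty acid oxidation, fell in CAOV3 from 424 ± 25.1 to 331 ± 5.41 (log2 change −0.36, limma adjusted p = 0.0266). In TOV21G it went from 278 ± 17.2 to 237 ± 11.7 (−0.23, limma adjusted p = 0.335). LPIN1, a phosphatidate phosphatase of glycerolipid synthesis and 1 of 10 genes of that list, fell in CAOV3 from 1897 ± 28.3 to 1556 ± 64.7 (−0.29, limma adjusted p = 0.0131). In TOV21G its change was −0.17 (limma adjusted p = 0.298). DESeq2 also called LPIN1 alone of this list in CAOV3, edgeR called LPIN1 and GPAM, and neither called any of the list in TOV21G. SCD, the desaturase that acts after FASN, was the only gene of its list of 9 to pass, in both lines, with log2 changes of −0.43 in CAOV3 and −0.97 in TOV21G, and the only 1 of the 82 whose difference between the lines passed.

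Of the 16 regulators, a list chosen with earlier results known, 3 fell in both lines, against 0.119% of all tested genes: SREBF1, SREBF2 and INSIG1. SREBF1, which encodes the SREBP most tied to fatty acid synthesis, went from 4670 ± 93.1 to 3739 ± 93.5 in CAOV3 (log2 change −0.32, limma adjusted p = 0.00125) and from 1692 ± 37.7 to 1399 ± 72.4 in TOV21G (−0.27, limma adjusted p = 0.0135). The 3 ascites libraries lay below the 3 controls in each line. SREBF2, which encodes the SREBP of cholesterol synthesis, changed by −0.34 and −0.39, and INSIG1, which retains SREBPs in the endoplasmic reticulum, by −0.87 and −0.55.

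**Figure D4:**
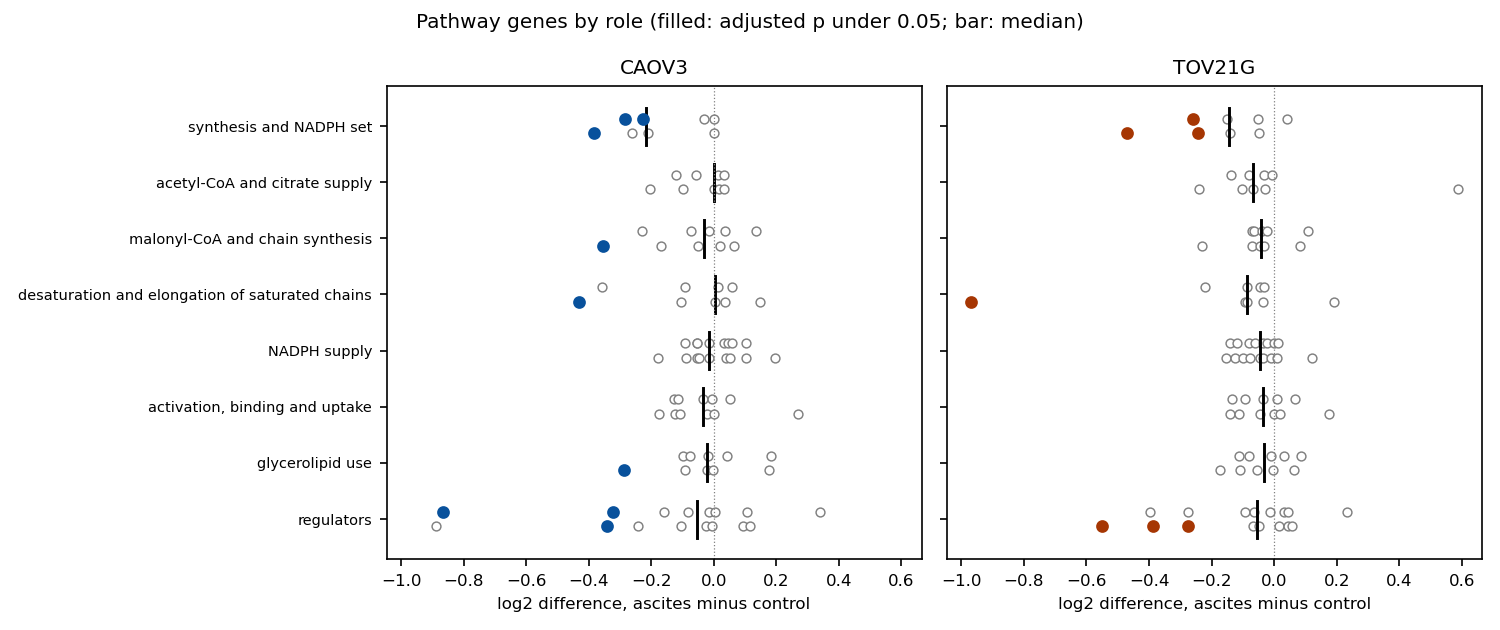
Log2 change with ascites for every tested gene of the set of 8 and of the 7 pathway lists, CAOV3 and TOV21G side by side, with points for genes, filled for adjusted p under 0.05 in limma, and bars for the median of each list. Called points lie only below 0, and the lists of acetyl-CoA supply, NADPH supply and activation hold none.

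Across libraries, the members moved together to different degrees. After centring each line on its own mean, the mean log2 level of the 8 genes was 0.10, 0.03 and 0.13 in the CAOV3 controls and −0.09, −0.11 and −0.07 with ascites. In TOV21G it was 0.09, 0.06 and 0.10 in the controls and −0.04, −0.05 and −0.16 with ascites. Pearson's r with the mean of the other 7 genes over the 12 libraries was 0.94 for ACSL3, 0.91 for IDH1 and 0.81 for FASN, 0.66 for ACLY, 0.51 for MID1IP1, 0.49 for ACSS2, and 0.36 for both ME1 and ACACA. The libraries share the treatment groups and the normalisation, so these values describe the pattern and carry no test.

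Among 11878 other tested genes with a mean value of at least 100, the 8 whose centred pattern over the 12 libraries was most like the mean of the set were PLXND1, BMF, SQLE and HMGCS1 (r = 0.97 each), GATA2 and ZCCHC24 (0.96 each), and FDFT1 and F2R (0.95 each). SQLE, HMGCS1 and FDFT1 encode enzymes of cholesterol synthesis, GATA2 a transcription factor, PLXND1 a semaphorin receptor, BMF a pro-apoptotic BCL2 family protein and F2R the thrombin receptor. HMGCS1 went from 9259 ± 253 to 7096 ± 126 in CAOV3 and from 1947 ± 19.5 to 1636 ± 71.4 in TOV21G. BMF, outside lipid metabolism, went from 1313 ± 55.3 to 1041 ± 48.6 in CAOV3 (limma adjusted p = 0.0275). In TOV21G it went from 542 ± 29.5 to 448 ± 40.4 and did not pass (limma adjusted p = 0.160). SQLE, HMGCS1 and FDFT1 passed in both lines, PLXND1, BMF, GATA2 and ZCCHC24 in CAOV3 only, and F2R in neither. All of these genes were picked for their pattern in the same libraries.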

How the data were processed

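The authors deposited 1 signal per gene and library, a normalised read count that is never negative. Trim Galore, cutadapt, STAR, HTSeq and DESeq are named in the submitters' processing notes. Versions, genome build, annotation and strandedness are not given in the sources used here, so reads of overlapping genes on either strand cannot be told apart. Dividing a library by its smallest step gave whole reads for 100% of its genes in every library (tolerance 0.001 reads). Positions and exon lengths come from GENCODE 29 (GRCh38), matched by gene identifier.

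Genes with a value of at least 10 in at least 3 libraries were tested on log2(value + 1) with limma 3.58.1 (R 4.3.3, trend in the prior), as 4 group means in 1 fit over all 12 libraries. A fold change on this scale understates the change of low genes. P-values are two-sided, and the threshold was an adjusted p of 0.05. Alternatives were pseudocounts of 0.5 and 8, no filter, TMM scaling, equal totals, edgeR 4.0.16 and DESeq2 1.42.0 on recovered reads, removal of a length and GC trend, a replicate block, each line alone, and each library left out; leaving out pairs of TOV21G libraries was chosen after seeing the data.

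The members and the pathway lists were chosen with earlier results of these data known. Named were the 8 members, every list gene called with ascites, and the 8 genes most like the members' mean. From each list, the 2 largest rises and the 2 largest falls in TOV21G against CAOV3 controls among the called genes were also named, or fewer where fewer were called. RPIA and GPAM were named after their values were seen.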

Additional observations from a re-analysis of the deposited data

How the results depend on the processing

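No call among the 8 genes changed direction. With the limma test as reported, 3 were called in CAOV3, 3 in TOV21G, 0 for the difference and 7 between controls. Leaving out 1 library gave 1 to 4 in CAOV3 (1 without CAOV3 ascites replicate 2), 0 to 3 in TOV21G (0 without TOV21G control replicate 1 or 3), 0 for the difference and 7 between controls. TOV21G fitted alone gave 0, and both removals of a pair of TOV21G libraries, chosen after seeing the data, gave 1. For the difference edgeR and DESeq2 each gave 1. Replicate numbers showed no sign of pairing the samples. Same-numbered control and ascites libraries had deviations with r of −0.07, 0.06 and 0.01 in CAOV3 and −0.17, −0.42 and 0.07 in TOV21G. With 3 libraries per group these values cannot show that the layout was unpaired. With the number as a replicate block, 1 was called in CAOV3 (IDH1, limma adjusted p = 0.0158) and 0 in TOV21G.

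Of all 17616 genes, limma called 305 in CAOV3, against 485 with equal totals, 511 in edgeR, 507 in DESeq2, 116 with the replicate block, 620 without TOV21G control 1 and ascites 2, and 162 to 345 without 1 library. It called 72 in TOV21G, against 114 in edgeR, 151 in DESeq2, 13 with the replicate block, 8 with the line alone and 24 to 137 without 1 library. For the difference it called 96, against 161, 148, 210, 9 and 188 under equal totals, edgeR, DESeq2, the replicate block and the same removal of 2 libraries, and 35 to 147 without 1. Between controls it called 14480, and 13992 to 14539 without 1. The share of CAOV3 calls that were higher was 36.7%, and 52.9% after removal of the length and GC trend. For TOV21G it was 34.7%, 44.7% in edgeR, 75.0% (6 of 8 calls) with the line alone and 49.2% without TOV21G control 2 and ascites 3. For the difference it was 43.8%, 55.3% with equal totals and 11.1% with the block. The cause was not tested.

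Sign changes concerned values near 0 that no setting called. In CAOV3 MID1IP1 was −0.0013 with TMM scaling, −0.0182 with equal totals, −0.0006 in edgeR, −0.0002 in DESeq2 and −0.0392 to 0.0397 without 1 library. ME1 was −0.0007, −0.0176, −0.0021 and −0.0016 under the same settings, −0.0038 after removal of the length and GC trend and −0.0189 to 0.0336 without 1 library. In TOV21G ACACA was 0.0024 without control 2 and ascites 3 and −0.15 to 0.0190 without 1 library, and ACSS2 −0.0169 to 0.13 without 1. The difference of ACSL3 was −0.0472 after removal of the length and GC trend and −0.0169 to 0.0587 without 1.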

Other observations

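Beyond the set of 8, the untreated lines differed in relatives of the same enzymes, in a comparison in which 82.2% of all tested genes differed. Of the 82 list genes, 30 were higher and 45 lower in TOV21G controls (limma, adjusted p under 0.05). The genes named here and in the next paragraph were picked on these same values. They are at most the 2 largest rises and the 2 largest falls among the called genes of each list. Relatives that differ in opposite directions are therefore favoured by the choice, and the other relatives are not given. MID1, the microtubule-associated partner of MID1IP1, was 704 ± 20.7 in CAOV3 and 3714 ± 277 in TOV21G, opposite in direction to MID1IP1. Among acyl-CoA synthetases, ACSL1 was 162 ± 21.1 in CAOV3 and 5777 ± 153 in TOV21G, while ACSL3 was lower in TOV21G. The desaturase SCD was lower in TOV21G by a log2 difference of −4.70 and its relative SCD5 higher by 5.28. The elongases ELOVL6 and ELOVL7 differed by −1.86 and 4.28. Of the genes tied to mitochondria, ACSS1, an acetate-activating enzyme, differed by −5.02, CS, citrate synthase, by −1.01, CBR4 by −1.0, NNT by −0.89 and NADK2 by 0.85. The cytosolic aconitase ACO1 differed by 2.75, HLCS, which attaches biotin to carboxylases, by 0.87, TKT by 0.60 and RPE by −0.67.

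FABP4, a fatty acid binding protein best known from adipocytes, was 3344 ± 178 in CAOV3 controls and 2959 ± 32.4 with ascites, and was 0 in all 6 TOV21G libraries. PRKAA2, a catalytic subunit of the kinase AMPK, which inhibits acetyl-CoA carboxylase, was 0 in the 3 CAOV3 controls and 880 ± 80.6 in TOV21G controls. Of the lipins, LPIN3 and LPIN2 were higher in TOV21G, by 2.46 and 1.2. The lipid droplet protein PLIN2 differed by −1.18, the transporters SLC27A1 and SLC27A2 by 2.15 and −5.90, and the regulators NR1H2, MLXIPL and USP2 by 1.13, −3.20 and −2.55. SLC27A2, SCD5 and MLXIPL had mean values under 10 in the line where they were low, so their log2 differences depend on the pseudocount.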
